A study of Mus musculus with 3 samples.

Results

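The mouse genes whose symbol is a CD number, such as Cd9 or Cd47, were taken from the gene tables by the pattern of the symbol (Cd, digits, then at most a letter and a digit), leaving out Cd44. The pattern found 87 genes among the 41743 symbols listed. CD numbers are given to surface molecules that sets of monoclonal antibodies recognise, mostly on leukocytes, so the numbers join unrelated protein families. The data are RIP-seq, the sequencing of RNA that comes down with an antibody, in 3 libraries from the mouse osteosarcoma line K7M2. In the cells of every library, including the control, the ezrin gene had been knocked out and a transgene for ezrin T567A, the form that stays closed, had been put in. An antibody to ezrin gave 2 libraries (ezrin IP, numbered 1 and 2 as replicates). Normal mouse IgG, the background of the method, gave 1 (IgG IP). The labels name no separate cultures and no number of clones, so p-values measure only the spread between the ezrin libraries, which may be technical.

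Ezrin links membrane proteins to actin filaments, and several molecules with CD numbers sit at such links. Tetraspanins, which cross the membrane repeatedly, gather integrins and immunoglobulin-like partners into patches of membrane, and some of those partners bind ezrin and its relatives. Sialomucins such as Cd34 carry dense sugars on the cell surface. Cd47 signals to phagocytes through Sirpa, and Cd274 (PD-L1) restrains T cells. The comparison here is of messages recovered with each antibody, not of proteins, and there was no input library among those analysed here.

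Counts assigned to genes totalled 10124580 in IgG IP and 16196329 to 19676595 in the ezrin IP libraries. Of 8 markers of the osteoblast lineage, the label's cell type, 5 were measured. Col1a2 was at 198, 156 and 61.9 RPKM (reads per kilobase of gene, scaled to 1000000 reads) in ezrin IP replicates 1 and 2 and IgG IP. In the same order, Spp1 was at 84.0, 87.1 and 29.7 RPKM and Col1a1 at 68.4, 52.7 and 36.5 RPKM. Runx2 was at 3.57, 3.49 and 4.48 RPKM, and Alpl at 0.290, 0.216 and 0.555 RPKM. The other markers of this list, Ibsp, Sp7 and Bglap, had at most 1 count in any library. Of 3 markers of all leukocytes, Ptprc and Laptm5 had no count in any library, and the list summed to 0.947, 0.477 and 0.105 CPM (counts per 1000000, with the libraries' totals scaled by TMM). The deposited RPKM are not scaled by these totals, and they put ezrin IP higher against IgG IP than CPM does. Over all tested genes, the median log2 fold was 0.22 on log2(RPKM + 1) and −0.02 by edgeR on counts. RPKM are therefore given for levels between genes, and folds are those of edgeR on counts unless stated. The libraries are bulk RNA, so a message made by few cells and a message made at a low level by all cells cannot be told apart.

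Most of the 87 genes were silent or nearly so in the recovered RNA. No count was listed for 48 of them in any library, and 17 more had 1 to 15 counts over the libraries together, with at most 9 in any library. Most symbols at large had no count either: of all 41743 listed, 17575 had a count in at least 1 library, and 12478 were tested. A count of 0 allows up to 3 counts, which is 0.152, 0.185 and 0.296 unscaled CPM in ezrin IP replicates 1 and 2 and IgG IP. The remaining 22 were tested, and 14 were expressed, meaning at least 1 RPKM in each of the 3 libraries. The number expressed was also 14 with 1 RPKM in any library as the rule.

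Most antigens of lymphocytes and myeloid cells were among the genes with no count. Of 20 antigens of T and NK cells, 14 had no count, among them the signalling chains of the T cell receptor Cd3d, Cd3e and Cd3g and the coreceptors Cd4 and Cd8a. The other 6 of these (Cd5, Cd27, Cd28, Cd96, Cd160 and Cd244a) had at most 6 counts in a library. Of 9 genes of B cells and antigen presentation, 5 had no count, including Cd22 and Cd79b, and only Cd74, the invariant chain of class II molecules, was tested. Cd79a, a chain of the B cell receptor, had 8, 1 and 0 counts in ezrin IP replicates 1 and 2 and IgG IP. In the same order, a list of 6 T cell markers summed to 0.249, 0.238 and 0.105 CPM, and a list of 5 B cell markers to 6.88, 6.02 and 13.1 CPM. The B cell sum was almost all Pax5, a transcription factor of B cells, which was lower in ezrin IP (log2 fold −1.07, SE 0.32, edgeR adjusted p = 0.00381), while Cd79b and Ms4a1 had no count. Of 15 myeloid antigens and lectins, 12 had no count, including Cd33 and Cd177, and only Cd14 was tested. Both leukocyte tetraspanins, Cd37 and Cd53, had no count. Cd24a, a small sialomucin, also had none, but the treatment of reads matching several places is not stated in the labels or files.

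The expressed genes were led by the tetraspanins Cd63, Cd151, Cd9 and Cd81. Cd63, which travels between the surface, lysosomes and exosomes, was at 140, 181 and 100.3 RPKM in ezrin IP replicates 1 and 2 and IgG IP. It alone held 46.1% (exact 95% interval 45.5 to 46.7), 51.9% (51.3 to 52.6) and 41.3% (40.5 to 42.2) of the counts of the 87 genes in the same order. Next came Cd151 at 39.9, 40.4 and 21.2 RPKM, Cd9 at 44.6, 36.2 and 19.9 RPKM, and Cd81 at 35.1, 34.7 and 18.0 RPKM. Ranked by mean RPKM, these 3 lay close together, and their order differed between libraries. Cd47, Cd82, Cd34 and Cd14 followed at 8.07 to 19.4 RPKM, then Cd164 at 4.10 to 7.56 RPKM. Cd320, Cd109, Cd99l2, Cd302 and Cd274 were between 1.29 and 3.94 RPKM. Just below the limit lay Cd74, at 0.946, 0.979 and 0.768 RPKM, and Cd59a, at 0.600, 0.595 and 0.599 RPKM.

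**Figure D1:**
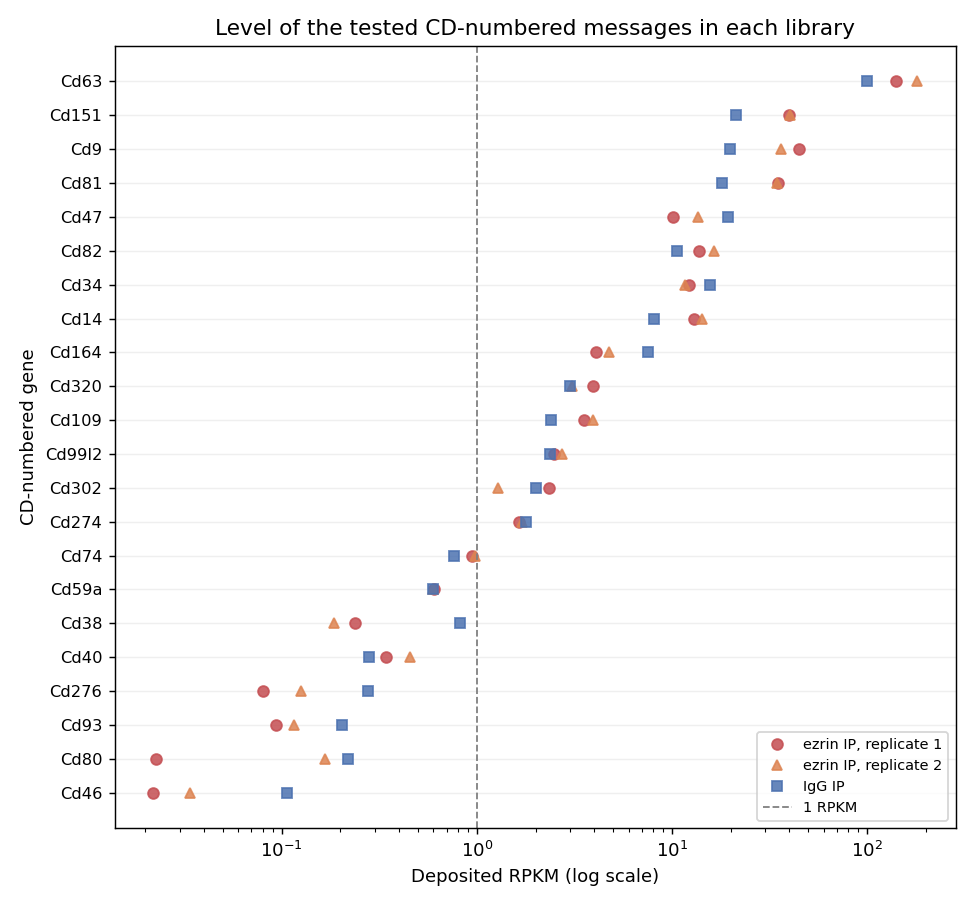
Deposited RPKM (log axis) of the 22 tested genes in the 3 libraries, with a dashed line at 1 RPKM. Cd63 lies highest, at 100.3 to 181 RPKM, 14 genes lie right of the line in every library, and Cd46 lies lowest, at 0.0220 to 0.107 RPKM.

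Compared with IgG IP, 1 of the 22 tested genes was higher in ezrin IP (Cd9) and 5 were lower (Cd34, Cd38, Cd46, Cd47 and Cd164), and 16 were not called. Calls are those of edgeR's quasi-likelihood F test at an adjusted p under 0.05, with p-values adjusted over all genes by Benjamini-Hochberg. Of all 12478 genes tested, 36.4% were called, 19.0% higher and 17.4% lower, so the count of 6 is no larger a share than that of genes at large. Among protein-coding genes alone, 36.2% were called, 20.5% higher and 15.7% lower. The median log2 fold of the 22 was −0.32, against −0.02 over all tested genes. Cd46 and Cd276 passed the filter on low counts through the IgG library alone, so their direction was in part set by the filter, and the counts and the median above include them. The single IgG library has no replicate of its own and is assumed to vary like the ezrin libraries.

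**Figure D2:**
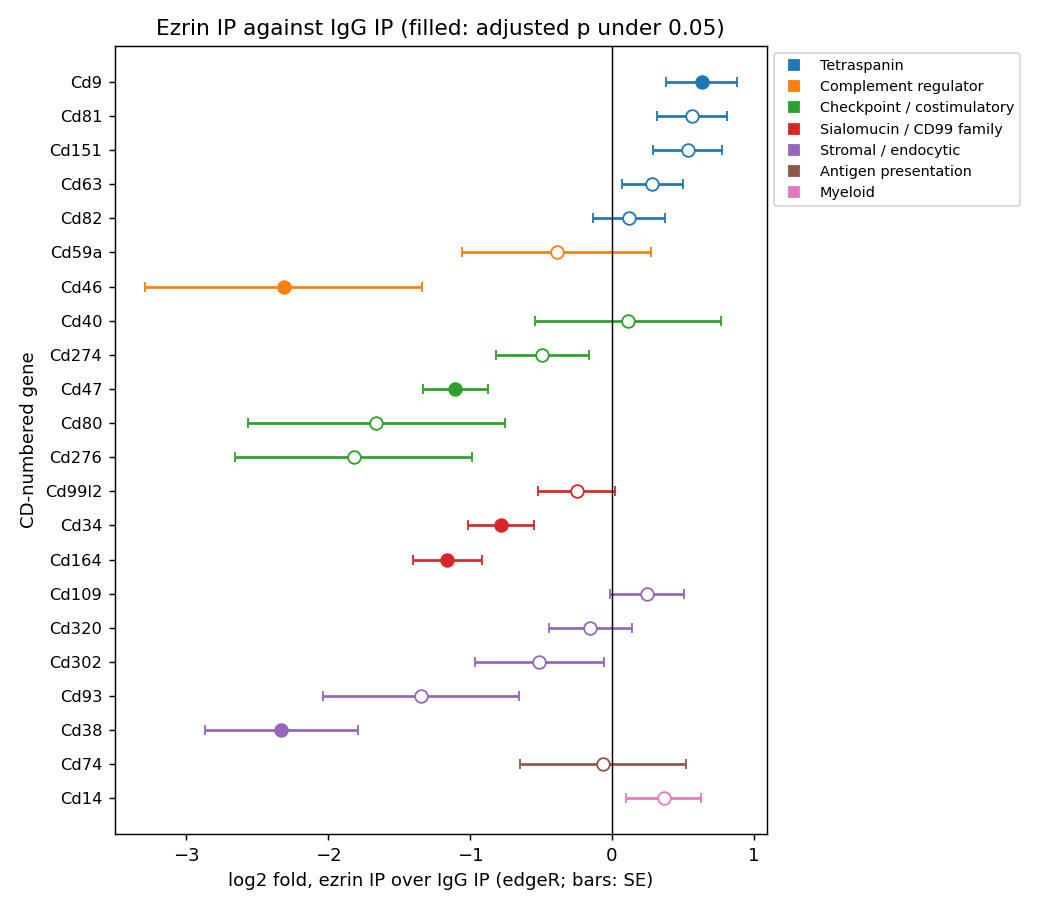
Log2 fold of ezrin IP over IgG IP (horizontal axis) for the 22 tested genes, coloured by role, with bars of 1 SE from edgeR and filled points for adjusted p under 0.05. The 5 tetraspanins lie right of 0, from 0.12 to 0.63, with Cd9 the only filled point there, and the 5 filled points on the left run from −0.78 to −2.33.

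All 5 expressed tetraspanins had a log2 fold above 0, where the median of all tested genes was −0.02. Cd9 alone was called higher, where 19.0% of all tested genes were. Cd9 (chromosome 6, 125460266 to 125494760, GRCm38), a partner of integrins that is abundant on exosomes, had 2180, 1443 and 601 counts in ezrin IP replicates 1 and 2 and IgG IP. That is 109, 86.0 and 62.8 CPM, so both ezrin libraries lay above the single IgG library. Its log2 fold was 0.63 (SE 0.25, edgeR adjusted p = 0.0334), a 1.55-fold difference. The call was lost with DESeq2 (adjusted p = 0.0547), with genes of at least 10 CPM (0.0639) and after cyclic loess (0.107). Its direction stayed the same in those fits.

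Cd81 and Cd151 had folds of nearly the same size as Cd9 and fell just short of the threshold. Cd81 (chromosome 7, 143052750 to 143067930), which binds immunoglobulin-like partners such as Igsf8, was at 120 and 116 CPM in ezrin IP and 80.1 CPM in IgG IP. Its log2 fold was 0.56 (SE 0.25, edgeR adjusted p = 0.0588). Cd151 (chromosome 7, 141467362 to 141471481), which holds laminin-binding integrins, was at 130 and 128 CPM against 89.5 CPM, and its log2 fold came to 0.53 (SE 0.24, edgeR adjusted p = 0.0726). For both genes the ezrin libraries lay close together and above IgG IP. Each passed with library size as the only scaling (adjusted p = 0.0207 and 0.0265), with no filter (0.0338 and 0.0424) and on log2(RPKM + 1) with limma (0.00643 and 0.00729). Those settings also moved the median of all tested genes, from −0.02 to 0.10, 0.07 and 0.22.

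Cd63 and Cd82 were not called, with smaller folds. Cd63 (chromosome 10, 128896231 to 128912822) was at 614 and 773 CPM in ezrin IP against 569 CPM in IgG IP, and its log2 fold was 0.29 (SE 0.22, edgeR adjusted p = 0.309). After cyclic loess its log2 fold turned to −0.26, so its direction rested on the scaling. Cd82 (chromosome 2, 93419102 to 93462950), known as a suppressor of metastasis, was at 49.3 and 57.5 CPM against 49.1 CPM. Its replicate 1 was thus level with IgG IP, and its log2 fold was 0.12 (SE 0.25, edgeR adjusted p = 0.738). As a group, the tetraspanins made up 76.9% (exact 95% interval 76.4 to 77.4) and 78.0% (77.5 to 78.5) of the counts of the 87 genes in ezrin IP and 61.8% (60.9 to 62.6) in IgG IP. These intervals cover counting error only, and the shares also move with the counts of the other genes, such as Cd34 and Cd47.

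Among tetraspanins without a CD symbol, which were taken for comparison, none was called higher, and their difference from the 5 above was not tested. Of 24 such genes listed, 13 were tested, and only Tspan5 was called, on the lower side (log2 fold −1.08, SE 0.23, edgeR adjusted p = 3.85e-05). Of all tested genes, 36.4% were called, 19.0% higher and 17.4% lower. None of the 13 was higher at an unadjusted p under 0.05 by edgeR, and none by DESeq2. Tspan4, the most abundant, was at 54.0, 42.6 and 35.8 RPKM in ezrin IP replicates 1 and 2 and IgG IP. In CPM it was at 167, 129 and 143 in the same order, and its log2 fold was 0.05. Tspan9 and Tspan31 had −0.43 and −0.41, and the median of the 13 was 0.05.

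A further list joined proteins that tetraspanins bind with proteins of exosome release, such as Pdcd6ip and syntenin. Of its 10 tested messages, 4 were higher and none lower, with a median log2 fold of 0.08. The list was chosen with earlier results of these data known, so these counts only describe it. Of all tested genes, 19.0% were higher and 17.4% lower. DESeq2 called 3 of the 10 higher. The laminin-binding integrin chains Itgb1 and Itga3 had log2 folds of 0.94 (SE 0.22, edgeR adjusted p = 2.21e-04) and 0.76 (SE 0.22, edgeR adjusted p = 0.00306). Itga6, another laminin-binding chain of the list, had −0.20 and was not called (edgeR adjusted p = 0.558). Igsf8, the immunoglobulin-like partner of Cd9 and Cd81, had 0.67 (edgeR adjusted p = 0.0389), whereas the related Ptgfrn had 0.09 and was not called (0.808). Pdcd6ip (Alix), which acts in the release of exosomes, had 0.77 (edgeR adjusted p = 0.00564), and syntenin (Sdcbp), which acts with it, had −0.21 (0.528). No tested gene of this list was lower at an unadjusted p under 0.05 by edgeR, and none by DESeq2.

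Both sialomucins with enough counts were lower in ezrin IP. Cd34 (chromosome 1, 194938821 to 194961292), a marker of blood progenitors and of vessels that stromal cells can also carry, was at 107 and 98.4 CPM in ezrin IP against 177 CPM in IgG IP. The ezrin libraries lay below the single IgG library, and the log2 fold was −0.78 (SE 0.23, edgeR adjusted p = 0.00353). On log2(RPKM + 1) it no longer passed (log2 fold −0.37, limma adjusted p = 0.177). Cd164 (chromosome 10, 41519500 to 41531042), also called endolyn, moves between the surface and lysosomes. It was at 21.7 and 24.7 CPM against 51.8 CPM, a 2.23-fold lower level (log2 fold −1.16, SE 0.24, edgeR adjusted p = 2.42e-05). Cd164 passed under all 7 alternative settings with a test, with adjusted p from 6.18e-06 to 0.0428. Cd99l2, a relative of the adhesion molecule Cd99, was at 14.6 and 15.6 CPM against 17.9 CPM, a log2 fold of −0.25 that was not called (edgeR adjusted p = 0.502).

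Cd47, the signal that restrains phagocytosis, was the other abundant gene that was lower. Cd47 (chromosome 16, 49851328 to 49912503) had 1516, 1658 and 1792 counts in ezrin IP replicates 1 and 2 and IgG IP, although the IgG library was the smallest. On the CPM scale this was 75.5 and 98.8 against 187, so replicate 1 was the lowest and both lay well below IgG IP. The log2 fold was −1.10 (SE 0.23, edgeR adjusted p = 2.02e-05), a 2.15-fold lower level. It passed under all 7 alternative settings with a test, with adjusted p from 6.33e-07 to 0.0422. The message of Sirpa, the receptor of Cd47, was also lower (log2 fold −1.36, SE 0.35, edgeR adjusted p = 5.55e-04), and that of its ligand Thbs1 was not called (0.19, 0.522).

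Other immune ligands were rare and not called. Cd274 (chromosome 19, 29362107 to 29388095) was at 7.13 and 7.15 CPM in ezrin IP against 10.0 CPM in IgG IP, and its log2 fold came to −0.49 (SE 0.33, edgeR adjusted p = 0.240). Cd276 (B7-H3), with 7, 9 and 15 counts, and Cd80, a ligand of Cd28, with 2, 12 and 12 counts, had log2 folds of −1.82 and −1.66 with large errors (SE 0.84 and 0.90). For Cd80 the ezrin replicates differed more from each other than replicate 2 did from IgG IP. Cd40, a receptor of the tumour necrosis factor family, had 28, 30 and 14 counts and a log2 fold of 0.12 (edgeR adjusted p = 0.909).

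The remaining calls, Cd38 and Cd46, rest on few counts. Cd38 (chromosome 5, 43868809 to 43912374), an enzyme that breaks down NAD, had 22, 14 and 47 counts in ezrin IP replicates 1 and 2 and IgG IP. Its log2 fold was −2.33 (SE 0.54, edgeR adjusted p = 1.29e-04), and both ezrin libraries lay below IgG IP. DESeq2 left it just above the threshold (adjusted p = 0.0598). Cd46 (chromosome 1, 195038971 to 195098784), a complement regulator found mainly in the testis in mice, had 4, 5 and 12 counts. It was called at the edge (log2 fold −2.31, SE 0.98, edgeR adjusted p = 0.0496) and passed in none of the 6 alternatives that tested it (adjusted p from 0.0525 to 0.411). Cd46 overlaps Cr1l, another complement regulator, in the annotation. Whether the counting used strand is not stated in the labels or files, which also bears on Cd9, Cd34, Cd38 and Cd47 and on the uncalled Cd81, Cd151, Cd82, Cd274, Cd276, Cd80, Cd74 and Cd302, since each overlaps an annotated gene. Cd59a, which blocks the membrane attack complex, had 26, 21 and 16 counts and was not called (log2 fold −0.39, edgeR adjusted p = 0.679). Its near copy Cd59b had 4, 3 and 0 counts and was not tested.

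Of 5 tested genes of stromal, scavenger or endocytic type, Cd38 was lower, as given above, and the other 4 were not called. Of all tested genes, 17.4% were lower and 19.0% higher. Cd109, a membrane-anchored relative of alpha-2-macroglobulin, was at 29.3 and 31.5 CPM in ezrin IP against 25.6 CPM in IgG IP (log2 fold 0.25, SE 0.26, edgeR adjusted p = 0.481). Cd320, the receptor that takes up vitamin B12 on transcobalamin, was at 13.5 and 10.3 CPM against 13.3 CPM, so IgG IP lay between the ezrin replicates (log2 fold −0.15, edgeR adjusted p = 0.713). Cd302, a C-type lectin, had 76, 34 and 40 counts, and its replicates again lay far apart (log2 fold −0.51, edgeR adjusted p = 0.393). Cd93, a marker of endothelium and progenitors, had 15, 15 and 20 counts (log2 fold −1.35, SE 0.69, edgeR adjusted p = 0.112). Cd248 (endosialin), a stromal marker, had 9, 3 and 2 counts and was not tested.

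Cd14, the coreceptor for bacterial lipopolysaccharide, was the sole expressed antigen of the myeloid group. It had 537, 482 and 206 counts, or 26.8, 28.7 and 21.5 CPM, with both ezrin libraries above IgG IP. The log2 fold was 0.37 (SE 0.26, edgeR adjusted p = 0.281), and it passed only on log2(RPKM + 1) with limma (adjusted p = 0.0267). Of its signalling partners, Tlr4 was lower (log2 fold −1.20, SE 0.29, edgeR adjusted p = 2.64e-04) and Ly96 was not called (−1.24, SE 0.54, edgeR adjusted p = 0.0574). Of 6 macrophage markers fixed as a list, only Cd14 and Csf1r were tested and neither was called. Adgre1 had no count, Fcgr1 and Lyz2 had at most 3 counts in a library, and Cd68 had 5, 7 and 3. The list summed to 991 and 900 CPM in ezrin IP and 1256 CPM in IgG IP, nearly all of it Csf1r. Cd74 had 38, 32 and 19 counts and a log2 fold of −0.06 (edgeR adjusted p = 0.945).

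Surface antigens that have a CD number but another symbol went both ways. Of 49 tested among 62 listed, 5 were higher and 8 lower, with a median log2 fold of 0.05, where 19.0% of all tested genes were higher and 17.4% lower. DESeq2 called 5 higher and 4 lower. Bst2 (tetherin), the most abundant at 679, 665 and 319 RPKM, had a log2 fold of 0.69 (edgeR adjusted p = 0.00800). Itgb1, Igf2r (0.81), the urokinase receptor Plaur (0.65) and the amino acid transporter chain Slc3a2 (0.63) were also higher. Itgb1 was also counted in the list of tetraspanin partners. Of those called, the lowest were Sirpa, the phosphatase Ptprj (−1.23) and the cytokine receptor chain Il6st (−1.05). Ptprc, Dpp4, Kit, Thy1, Nt5e, Icam2 and Entpd1 had no count in any library. Of the proteins named for binding Cd2, which itself had no count, Cd2bp2 was higher (1.22, edgeR adjusted p = 2.14e-05) and Cd2ap lower (−0.70, edgeR adjusted p = 0.00695).

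The calls among the 22 genes changed with the setting, as did the share of all genes called. With no filter 3 were higher and 4 lower, against 15.0% and 10.8% of all genes, 25.8% together. With genes of at least 10 CPM 0 were higher and 3 lower, against 21.4% and 21.7% of all genes, 43.0% together. With RLE size factors 1 was higher and 4 lower, against 19.2% and 16.9%, 36.1% together. Cd34, Cd47 and Cd164 were among the lower genes in these 3 settings. With library size only 3 were higher and 4 lower, against 23.0% and 14.1%, 37.1% together. After cyclic loess 0 were higher and 4 lower, against 18.2% and 17.8%, 36.0% together. With DESeq2 0 were higher and 3 lower, against 14.3% and 7.94%, 22.2% together. On log2(RPKM + 1), where the median of all genes was 0.22, 4 were higher and 3 lower, against 29.9% and 7.73%, 37.7% together. Where 0 were higher, the count at an unadjusted p under 0.05 was 1 with genes of at least 10 CPM, 1 after cyclic loess and 3 with DESeq2.

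**Figure D3:**
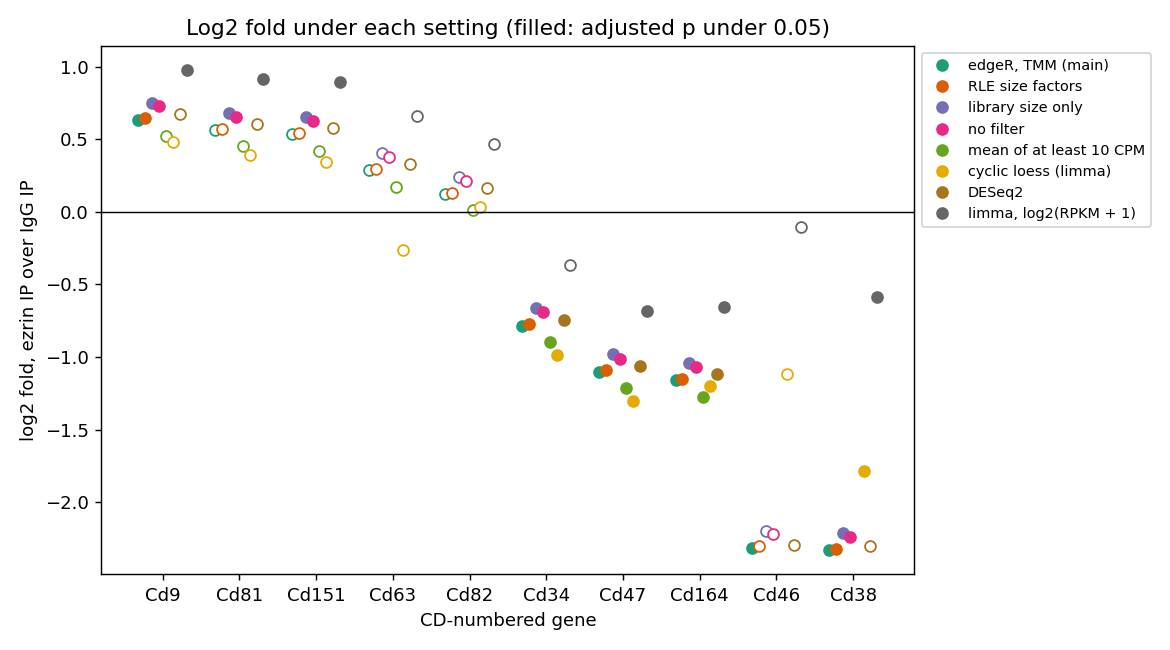
Log2 fold of ezrin IP over IgG IP (vertical axis) for the 5 tetraspanins and the 5 genes called lower, under the main test and 7 alternatives (colours), with filled points for adjusted p under 0.05. Cd47 and Cd164 stay filled and below 0 throughout, Cd46 is filled only in the main test, and Cd63 changes side after cyclic loess.

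Among the 22 tested genes, those counted over a longer gene length tended to have the lower fold. Count divided by RPKM gives each gene's length up to a factor shared within a library, so lengths were taken relative to Cd9. Cd34 was 3.57 times, Cd47 3.07 times and Cd164 2.18 times as long as Cd9, against 1.34 for Cd151 and 1.41 for Cd81. Cd109, at 3.38 times, had a log2 fold of 0.25 and does not follow that order. Across these 22 genes, which share the same 3 libraries and are not independent replicates, Spearman's rho of length and log2 fold was −0.53. The 22 include Cd46 and Cd276, whose direction was in part set by the filter. Over the 14 expressed genes, which leave both out, rho was −0.525. Over all 12478 tested genes it was −0.05, and over 11301 protein-coding genes −0.12. The part of length in the folds was not tested.

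**Figure D4:**
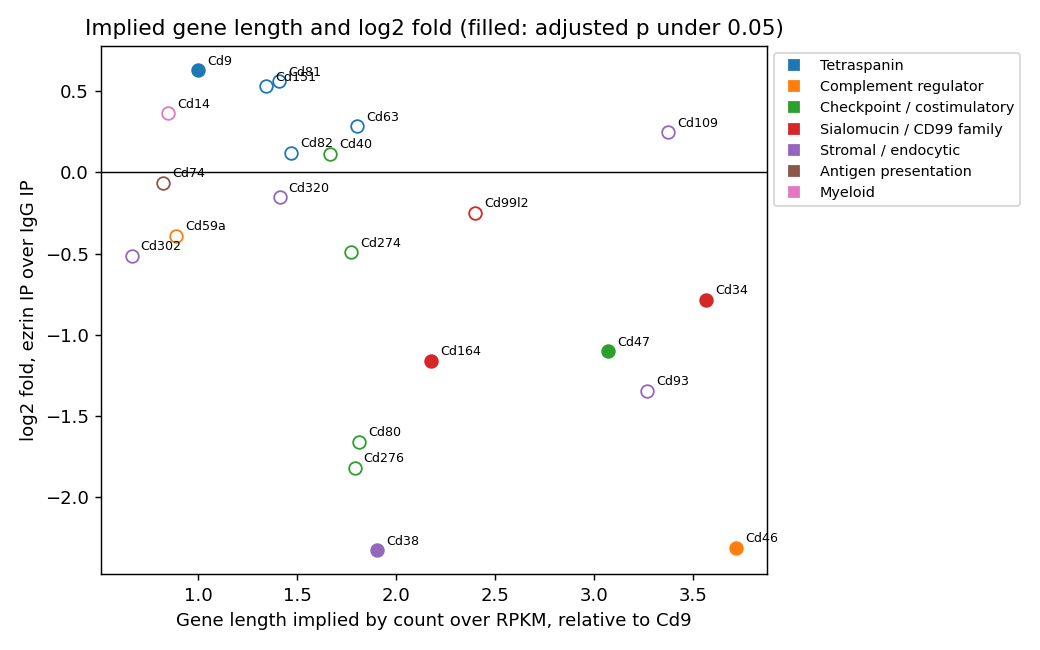
Gene length implied by count over RPKM, relative to Cd9 (horizontal axis), against the log2 fold of ezrin IP over IgG IP for the 22 tested genes, coloured by role and filled where adjusted p was under 0.05. Cd34 and Cd47 lie at 3.57 and 3.07 with folds of −0.78 and −1.10, the tetraspanins lie between 1 and 1.80, and Cd109 lies at 3.38 with a fold of 0.25.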

How the data were processed

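The authors deposited 2 tables a library: raw counts of each gene symbol, and RPKM, per the file headers and names. The genome build was GRCm38, per the submitters' processing notes; the aligner, counter and annotation are not stated there, in the labels or in the files. Counts were tested with edgeR 4.0.16 (R 4.3.3): TMM scaling, the default filterByExpr (about 0.617 CPM in at least 1 library), and the quasi-likelihood test over all genes with Benjamini-Hochberg adjustment at 0.05. The fit has 1 residual degree of freedom, and its prior degrees of freedom were infinite, so the spread pooled over genes was used. SE is the log2 fold over the square root of F, and is approximate. The step was also run on simulated counts, with changes only in well-counted genes and the same spread given to every library. That run does not bear on genes of few counts or on the spread of IgG IP. Alternatives used DESeq2 1.42.0, limma 3.58.1, other filters and scalings, and each ezrin library alone. Coordinates and biotypes came from RefSeq's genes of GRCm38.p6, where all 87 symbols were found. The genes and lists were chosen with earlier results of these data known. Genes named were all those tested, and from each related list the 3 most abundant and the 3 highest and lowest called, plus named partners. No sequence of these genes was used.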

Additional observations from a re-analysis of the deposited data

How the results depend on the processing

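Cd47, Cd164, Cd34 and Cd38 stayed below 0 in every setting tried, and Cd9, Cd81, Cd151 and Cd82 stayed above 0. The single call on the higher side was not stable: none was called with genes of at least 10 CPM (0, with 1 at an unadjusted p under 0.05), after cyclic loess (0, with 1) or with DESeq2 (0, with 3). With no filter or library size alone there were 3, and 4 with limma on log2(RPKM + 1). On the lower side 3 were called with genes of at least 10 CPM, with DESeq2 and with limma on log2(RPKM + 1), in place of 5, and in both directions together 3 with genes of at least 10 CPM and with DESeq2, in place of 6. The filter at 10 CPM left 12 of the 22 to test. The median log2 fold, −0.32, became −0.23 with no filter, 0.072 with genes of at least 10 CPM, −0.20 with library size only and 0.050 with log2(RPKM + 1). With each ezrin library left out, the median of log2 ratios of CPM + 1 was −0.29 to −0.17. The added 1 draws genes of few counts towards 0, so this range is not on the scale of −0.32. No call could be made from 1 library against 1. Over all genes, 79.5% of calls were higher with log2(RPKM + 1), 64.3% with DESeq2 and 52.3% in the main test. Of 144 further tests of single genes, 126 kept their side of the threshold, 11 lost it and 7 gained it. Genes under about 20 counts, such as Cd46, Cd80 and Cd276, are limited by depth. No paired analysis was possible because the ezrin and IgG groups share fewer than 2 replicate numbers.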
